A study of Mus musculus with 5 samples.

Results

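The comparison covered 2 teratoma libraries, P5_LCDM set against P5_2iL_F, out of 5 reduced representation bisulfite libraries in the series. Both tumours came from mice of C57BL/6x129S6 background and had formed following injection of embryonic stem cells into tetraploid embryos. P5_LCDM and P5_2iL_F are the labels of the culture conditions of the stem cells, which are not spelled out, and the P5_LCDM library carries the label P5_LCDM_1. The labels name no genotype, transgene, age, sex, tumour site or pooling, and each tumour is represented by 1 library. The other 3 libraries, the teratomas P5_2iL and P5_a2iL (labelled P5_a2iL_1) and a control muscle, are used only as context. The members of the comparison were the 4031235 CpG cytosines listed in both files, grouped in 200464 fixed 1 kb tiles and 14794 windows at gene ends, each with 5 or more shared cytosines. The P5_LCDM file listed 4601508 cytosines and the P5_2iL_F file 5323090.

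Methylation of the cytosine in CpG dinucleotides is copied at cell division by Dnmt1 and placed on unmethylated DNA by Dnmt3a and Dnmt3b. In mouse tissues most CpGs that stand apart from each other are methylated, whereas CpG islands, the CpG-dense stretches at many promoters, mostly are not. Embryonic stem cells can hold high or low methylation depending on their medium, and cells that differentiate from them acquire cell type patterns at enhancers and CpG-poor promoters. A teratoma holds many differentiated tissues, so a level between 0% and 100% can come from cells that differ. In such a bulk sample, a different share of a cell type and a different methylation within a cell type cannot be told apart, and this holds for every value below. The labelled tissue could not be checked against marker genes, since methylation does not give expression.

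A tile or window was called higher or lower where the mean percent of P5_LCDM minus that of P5_2iL_F was 25 percentage points or more in size. With 1 library on each side there is no replicate error and no test, and the calls describe these libraries. The files give no read counts, so the depth behind a percent is unknown and no interval can be given. The only measure of error is the agreement of the strands of a CpG, which are read separately: the spread per cytosine was 15.6 points in P5_LCDM and 13.7 points in P5_2iL_F over 1290017 CpGs with both strands.

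The 5 promoters printed here show the sequence behind the contrast at single gene starts. They are given from 5′ to 3′ on the strand of the gene, from RefSeq on GRCm38.p6, the build that mm10 names, with every CpG in capitals. The sequences of Mab21l2 and Cd27 stand for gene starts higher in P5_LCDM, and those of Capn12, Mcts2 and Hoxa5 for gene starts lower in P5_LCDM. Mcts2 and Hoxa5 were chosen after their values were seen.
Mab21l2: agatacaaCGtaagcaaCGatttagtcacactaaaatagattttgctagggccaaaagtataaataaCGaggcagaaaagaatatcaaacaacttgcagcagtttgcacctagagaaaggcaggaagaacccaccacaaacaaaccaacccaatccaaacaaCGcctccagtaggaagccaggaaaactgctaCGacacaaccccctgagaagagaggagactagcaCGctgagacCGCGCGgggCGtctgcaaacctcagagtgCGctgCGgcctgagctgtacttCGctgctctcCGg
Cd27: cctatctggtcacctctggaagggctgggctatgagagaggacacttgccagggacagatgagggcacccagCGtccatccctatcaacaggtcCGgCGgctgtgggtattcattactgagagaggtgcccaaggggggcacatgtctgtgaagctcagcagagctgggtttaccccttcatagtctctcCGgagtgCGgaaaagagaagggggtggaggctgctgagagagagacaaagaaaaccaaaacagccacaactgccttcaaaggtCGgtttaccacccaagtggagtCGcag
Capn12: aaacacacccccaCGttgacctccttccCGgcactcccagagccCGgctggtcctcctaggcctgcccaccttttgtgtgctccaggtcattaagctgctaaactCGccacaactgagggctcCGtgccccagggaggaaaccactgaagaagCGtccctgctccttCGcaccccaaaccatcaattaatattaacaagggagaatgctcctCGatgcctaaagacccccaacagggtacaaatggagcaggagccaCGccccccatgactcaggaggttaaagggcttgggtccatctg
Mcts2: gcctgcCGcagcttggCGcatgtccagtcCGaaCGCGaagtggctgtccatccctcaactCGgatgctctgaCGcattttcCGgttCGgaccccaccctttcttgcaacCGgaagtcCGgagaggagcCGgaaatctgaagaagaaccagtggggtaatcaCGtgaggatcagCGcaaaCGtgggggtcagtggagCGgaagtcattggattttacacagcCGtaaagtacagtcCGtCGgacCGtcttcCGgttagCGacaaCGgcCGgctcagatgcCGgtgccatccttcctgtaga
Hoxa5: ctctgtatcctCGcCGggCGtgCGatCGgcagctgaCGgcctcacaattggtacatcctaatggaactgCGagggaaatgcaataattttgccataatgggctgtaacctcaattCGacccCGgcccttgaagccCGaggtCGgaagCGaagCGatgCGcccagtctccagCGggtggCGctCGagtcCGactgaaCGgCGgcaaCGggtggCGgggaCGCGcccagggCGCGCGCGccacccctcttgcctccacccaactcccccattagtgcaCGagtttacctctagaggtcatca

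The Mab21l2 promoter (chr3:86548234-86548533, minus strand) holds 14 CpGs, and its 28 shared cytosines averaged 56.2% in P5_LCDM and 14.6% in P5_2iL_F. The Cd27 promoter (chr6:125236978-125237277, minus strand) holds 7 CpGs, and 11 shared cytosines averaged 63.4% in P5_LCDM against 11.9% in P5_2iL_F. At both promoters each strand showed the same direction. The Capn12 promoter (chr7:28881406-28881705, plus strand) holds 9 CpGs, and 11 shared cytosines averaged 17.8% in P5_LCDM and 61.7% in P5_2iL_F. The Mcts2 promoter (chr2:152686898-152687197, plus strand) holds 25 CpGs, and its 34 shared cytosines averaged 26.7% in P5_LCDM against 91.1% in P5_2iL_F. All 34 lay between 18.8% and 33.3% in P5_LCDM and between 60% and 100% in P5_2iL_F, so the libraries did not overlap at any of them. The median of all 32851 promoters of the same length is 7 CpGs, so the Cd27 promoter has the typical number and those of Mcts2 and Hoxa5 are CpG-dense.

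The Hoxa5 promoter (chr6:52204538-52204837, minus strand) holds 29 CpGs, and its 53 shared cytosines averaged 3.14% in P5_LCDM and 65.1% in P5_2iL_F. On the printed strand 27 cytosines averaged 0% in P5_LCDM and 95.1% in P5_2iL_F, whereas on the opposite strand 26 cytosines averaged 6.41% in P5_LCDM and 33.9% in P5_2iL_F, with 15 of them at 0% in P5_2iL_F. The strands of P5_2iL_F therefore disagreed over part of this promoter. Neighbouring cytosines of a strand often carried the same value: the 17 cytosines on the printed strand of Mcts2 took 3 different values in P5_LCDM and 7 in P5_2iL_F. Cytosines of a window share reads in this way and are not independent measurements.

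The P5_LCDM teratoma had less methylation than the P5_2iL_F teratoma, and the deficit lay in CpG-poor DNA. Over all shared cytosines the mean level was 45.7% in P5_LCDM and 50.5% in P5_2iL_F, a difference of -4.81 points. Cytosines with fewer than 5 other listed cytosines within 100 bp averaged 69.5% in P5_LCDM and 79.8% in P5_2iL_F. With 5 to 9 neighbours the levels were 66.7% in P5_LCDM and 74.3% in P5_2iL_F, and with 10 to 19 they were 51.9% in P5_LCDM and 56% in P5_2iL_F. With 20 to 29 neighbours the levels were 17.7% in P5_LCDM and 17.6% in P5_2iL_F, and with 30 or more they were 4.26% in P5_LCDM and 3.32% in P5_2iL_F. The sign of the difference thus turned with CpG density, although the excess in the densest DNA was small in points.

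The difference came with a shift of cytosines above 80% into the middle range, while the net share below 20% hardly changed. Cytosines above 80% made up 33% of shared cytosines in P5_LCDM and 43.3% in P5_2iL_F, and those at 20% to 80% made up 24.9% in P5_LCDM and 14.5% in P5_2iL_F. Cytosines below 20% made up 42.2% in each library. This is a net value, since the share moved in opposite directions by density. On autosomes, with fewer than 5 neighbours, it was 12.5% in P5_LCDM and 9.68% in P5_2iL_F. With 30 or more it was 93.3% in P5_LCDM and 95.3% in P5_2iL_F. Of the 33079 tiles below 20% in P5_2iL_F, 3843 lay at 20% to 80% in P5_LCDM and 106 lay above 80%. Of the 122360 tiles above 80% in P5_2iL_F, 50548 lay at 20% to 80% in P5_LCDM and 319 lay below 20%. Among the 80532 tiles at 90% or more in P5_2iL_F, the P5_LCDM level was 57.5% at the 5th percentile, 77.4% at the 25th and 87.4% at the median. Few tiles thus went all the way to the unmethylated class.

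By location, windows at gene ends averaged 9.38% in P5_LCDM and 9.36% in P5_2iL_F, gene bodies 52.3% in P5_LCDM and 56.3% in P5_2iL_F, and intergenic DNA 64% in P5_LCDM and 73.6% in P5_2iL_F. Intergenic cytosines with fewer than 5 neighbours differed most, with 68.1% in P5_LCDM and 80.7% in P5_2iL_F. Around the starts of 17492 genes whose strand is known, the mean in the first 250 bp inside the gene was 3.79% in P5_LCDM and 3.45% in P5_2iL_F. Between 2750 and 2500 bp before the start it was 47.2% in P5_LCDM and 49.8% in P5_2iL_F. Among autosomes the difference ran between -6.18 points on chromosome 16 and -3.44 points on chromosome 11. The X chromosome averaged 50.4% in P5_LCDM and 57.8% in P5_2iL_F. The 53 mitochondrial cytosines, which carry little methylation, averaged 0.18% in P5_LCDM and 0.14% in P5_2iL_F.

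**Figure D1:**
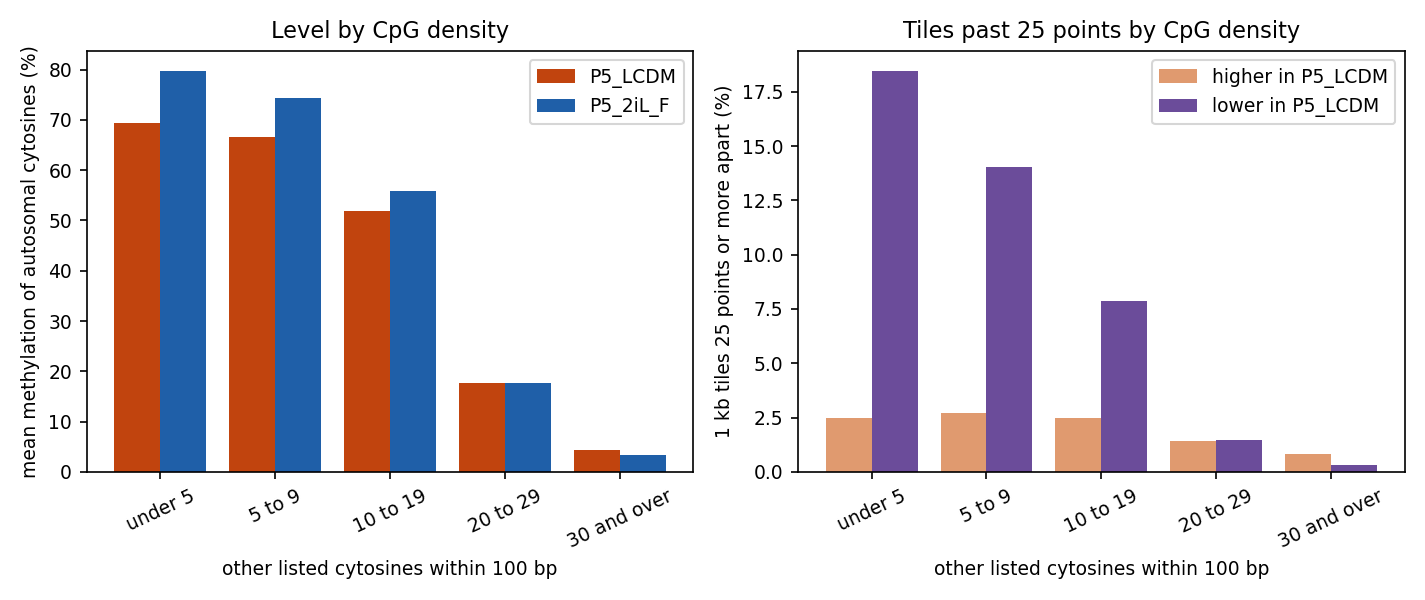
Left, mean methylation in percent of autosomal cytosines in P5_LCDM and P5_2iL_F by the number of other listed cytosines within 100 bp; right, percent of 1 kb tiles called higher or lower in P5_LCDM in the same bands. The libraries differ by 10.3 points in the sparsest band and by 0.94 points, in the other direction, in the densest. The share of tiles called lower is 18.5% in the sparsest band and 0.32% in the densest. Tiles of the densest band averaged 4.18% in P5_2iL_F, which bounds the lower calls.

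Of the 200464 tiles, 4903 were called higher in P5_LCDM (2.45%) and 25204 lower (12.6%). The median tile difference was -4.92 points. Higher calls made up 16.3% of all calls, and 28.1% once the overall difference of the libraries was subtracted from every tile. Where both strands could be set apart, opposite strands of the libraries were 25 points or more apart in 17.6% of 134913 tiles, against 7.89% for the strands within P5_LCDM and 4.53% for those within P5_2iL_F. Tiles with 25 points or more on each strand alone and in the same direction numbered 1864 higher and 8393 lower, and in 392 the strands passed in opposite directions. Strands of a library share the animal and the library preparation, so this background contains no spread between animals.

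**Figure D2:**
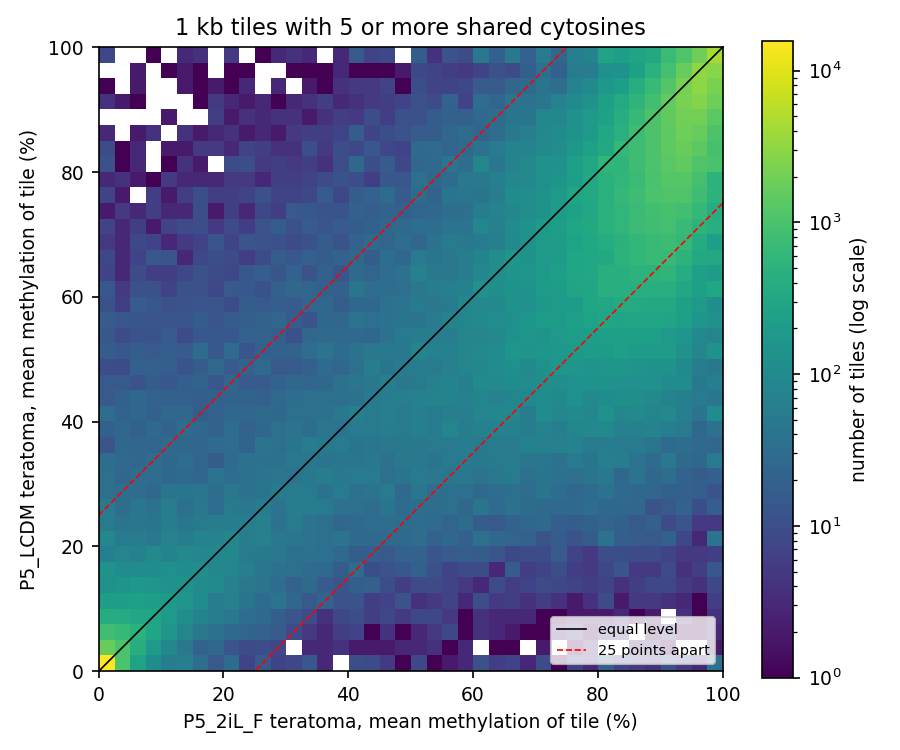
Mean methylation in percent of each 1 kb tile in P5_LCDM (vertical axis) against P5_2iL_F (horizontal axis), with colour for the number of tiles on a log scale and dashed lines at 25 points. More tiles fall under the lower dashed line (25204) than over the upper one (4903), and most of these are highly methylated in P5_2iL_F.

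Density and location sorted the calls. In tiles with fewer than 5 neighbours 2.49% were higher in P5_LCDM and 18.5% lower, and in those with 30 or more 0.81% were higher and 0.32% lower. Tiles in intergenic DNA were lower in 16.7% of cases, those in gene bodies in 11% and those at gene ends in 3.42%. Tiles at gene ends averaged 24.1% in P5_2iL_F and intergenic ones 78.5%, so the same limit holds there in part. The densest gene-body tiles were the class with the clearest excess of higher calls, with 59 higher and 16 lower of 3458. Called tiles clustered. A tile called higher was followed by a measured tile with the same call in 22.7% of cases, against 2.78% over all tiles with a measured next tile, and a tile called lower in 26.7% of cases, against 8.96%.

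Runs of 4 or more consecutive called tiles numbered 4 higher and 15 lower in P5_LCDM, and they were looked up after their values were seen. The run in Zfp423 (chr8:87660001-87664000), a zinc finger factor of brain and adipose development, averaged 51.3% in P5_LCDM and 14.6% in P5_2iL_F over 217 cytosines. The run in Lhx2 (chr2:38354001-38358000), a LIM homeobox factor of forebrain and eye, averaged 45.6% in P5_LCDM and 5.59% in P5_2iL_F over 194 cytosines. The runs in Nr4a2, a nuclear receptor of dopamine neurons, and 1347 bp from Irx3, an Iroquois homeobox factor, averaged 60.7% and 51.1% in P5_LCDM against 22.3% and 14.2% in P5_2iL_F. The 5′ windows of these genes were low in both libraries: that of Lhx2 was at 0.15% in P5_LCDM and 0.07% in P5_2iL_F, that of Nr4a2 at 0.49% in P5_LCDM and 0.83% in P5_2iL_F, and that of Irx3 at 1.8% in P5_LCDM and 1.38% in P5_2iL_F. The 5′ window of Zfp423 was at 11.4% in P5_LCDM and 1.9% in P5_2iL_F.

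Of the 15 lower runs, 5 are described with their values. Snai1, a repressor of epithelial genes, had 39.4% in P5_LCDM and 83.8% in P5_2iL_F over 5 tiles. Lama5, a laminin chain, had 28.4% in P5_LCDM and 81.1% in P5_2iL_F over 5 tiles, and Hspg2, which encodes perlecan, 31.9% in P5_LCDM and 85.7% in P5_2iL_F over 4 tiles. Dll4, the Notch ligand of arterial endothelium, had 32.3% in P5_LCDM and 84.3% in P5_2iL_F, and a run 2957 bp from Col6a1, a collagen VI chain, had 37.5% in P5_LCDM and 82.4% in P5_2iL_F. The 5′ window of Dll4 was at 1.13% in P5_LCDM and 1.03% in P5_2iL_F, so the difference lay outside it. The remaining lower runs lie in Caskin2, Cdc42ep1, Mgll, Ptpru, Rusc2, Tnks1bp1, Sipa1l3, Ssh1 and Dbh and next to Scube3, with differences between -61.1 points (Ssh1) and -32 points (Dbh).

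Single tiles with 20 or more cytosines reached larger differences. A tile in Dgkh, a diacylglycerol kinase, had 83% in P5_LCDM and 6.89% in P5_2iL_F. A CpG-dense tile 6349 bp from Trp53i11, with 36 cytosines, had 72.2% in P5_LCDM and 0% in P5_2iL_F, and it was at 0.23% in P5_2iL, 3.31% in P5_a2iL and 2.78% in muscle. A tile at the end of Irx3 had 76.2% in P5_LCDM and 4.76% in P5_2iL_F. In the other direction a tile in Rasal3, a Ras GTPase activator of blood cells, had 17.6% in P5_LCDM and 97.6% in P5_2iL_F over 51 cytosines. Carmil2, an actin regulator of T cells, had 18.3% in P5_LCDM and 93% in P5_2iL_F, and B4galt5, a galactosyltransferase, had 3.3% in P5_LCDM and 78.4% in P5_2iL_F. Lasp1, an actin-binding protein, had 23.3% in P5_LCDM and 96.6% in P5_2iL_F. The tiles in Rasal3 and Carmil2 have median densities of 31 and 33 neighbours and are exceptions to the rarity of lower calls in dense DNA.

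Gene ends were called much less often than tiles. Of 14794 measured gene-end windows, out of 21887 protein-coding genes, 161 were higher in P5_LCDM (1.09%) and 380 lower (2.57%), and the median difference was 0. A window runs over 1000 bp outside and 500 bp inside the end of the gene with more shared cytosines. It lies at the 5′ end for 10500 genes, at the 3′ end for 1252, and at an end of unknown side for 3042 whose strand the tables used here do not give. At 5′ ends 93 were higher and 181 lower, and at 3′ ends 30 were higher and 113 lower. Higher calls were 29.8% of all calls, and 49% once the overall difference of the libraries was subtracted. That difference is not the one of gene ends, whose median was 0, so subtracting it raises windows that did not differ. The 49%, and the list counts after subtraction below, are therefore no measure of balance at gene ends. Only 8 higher and 4 lower calls fell among the 5569 windows with 30 or more neighbours, against 21 higher and 111 lower among the 674 with fewer than 5.

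The starting level bounds what can be called. Of the 1626 gene ends above 80% in P5_2iL_F, 239 were lower in P5_LCDM (14.7%), and of the 11809 below 20%, 102 were higher (0.86%). The higher windows had a median of 53.7% in P5_LCDM and 11.7% in P5_2iL_F, and the lower ones 49.5% in P5_LCDM and 84.5% in P5_2iL_F. Most called windows lay in the middle range in P5_LCDM: 137 of the 161 higher and 342 of the 380 lower ones were at 20% to 80% there. In P5_2iL_F 59 of the higher and 141 of the lower ones were. The rule favours this, since a higher window cannot lie below 20% in P5_LCDM, nor a lower one above 80%. A difference of 50 points or more was seen at 22 higher and 32 lower gene ends. Just inside the threshold stood Bicd1 and Galr2 (25% in P5_LCDM and 0% in P5_2iL_F each), Dcpp2 (66.7% in P5_LCDM and 91.7% in P5_2iL_F) and Ubd (68.8% in P5_LCDM and 93.8% in P5_2iL_F). Just outside stood Cyp26c1 (41.5% in P5_LCDM and 16.5% in P5_2iL_F), Fthl17b (57.1% in P5_LCDM and 82.1% in P5_2iL_F) and Slc9a4 (31% in P5_LCDM and 56% in P5_2iL_F).

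The gene ends described next have 10 or more shared cytosines and differ by 25 points or more on each strand alone. This holds for 63 higher and 112 lower ones, and the 15 of each with the largest differences are shown. Among all 14794 windows the extremes were Angptl8, with 89.7% in P5_LCDM and 13.5% in P5_2iL_F over 13 cytosines, and Vill, with 12.5% in P5_LCDM and 89.6% in P5_2iL_F over 8 cytosines, which do not meet this rule.

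**Figure D3:**
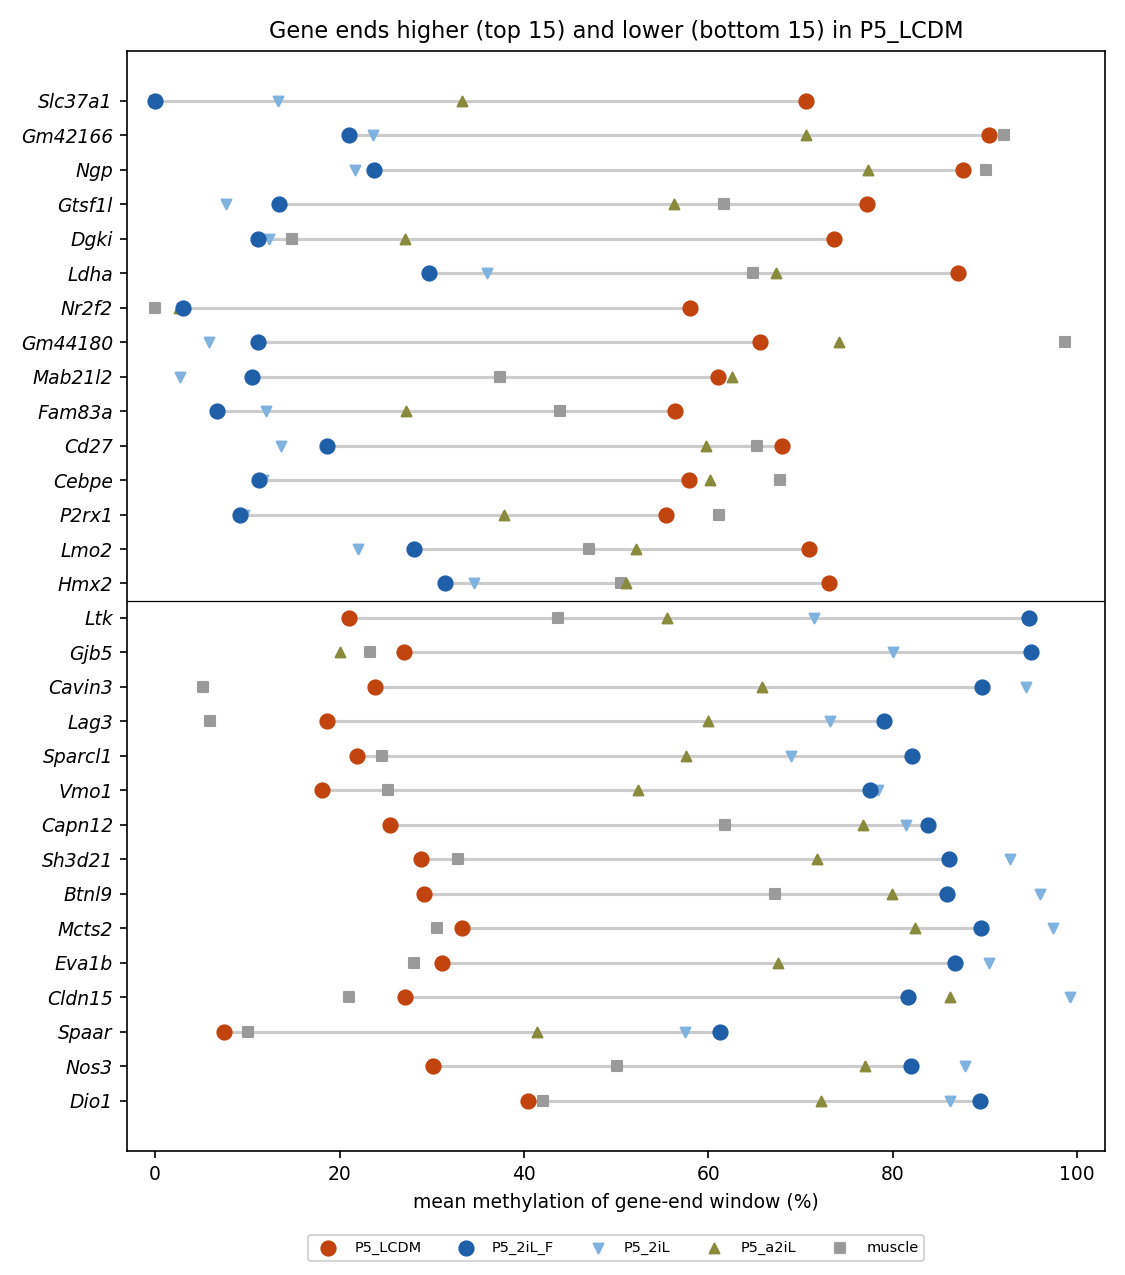
Mean methylation in percent of the gene-end windows of the 15 genes with the largest difference in each direction (rows), in each of the 5 libraries (points), with a grey line between P5_LCDM and P5_2iL_F. P5_2iL lies close to P5_2iL_F at most of these genes, while P5_a2iL and muscle lie between the pair or near P5_LCDM at many.

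Of the 15 named higher windows, those of Ngp, Cd27, Cebpe, P2rx1 and Lmo2 belong to genes known from blood cells. Cebpe, a transcription factor of granulocytes, had 57.9% in P5_LCDM and 11.3% in P5_2iL_F over 45 cytosines (chr14:54711674-54713174), 53.3 points higher on the plus strand and 39.3 on the minus strand. No cytosine of the window was lower in P5_LCDM and 39 were higher. Ngp, which encodes a neutrophil granule protein, had 87.7% in P5_LCDM and 23.8% in P5_2iL_F over 12 cytosines, all of them higher in P5_LCDM. Cd27, a receptor of T and B lymphocytes, had 68% in P5_LCDM and 18.6% in P5_2iL_F, with 17 of 18 cytosines higher. Lmo2, a cofactor of blood stem cell transcription factors, had 70.9% in P5_LCDM and 28% in P5_2iL_F over 14 cytosines. P2rx1, an ATP-gated channel of platelets and smooth muscle, had 55.4% in P5_LCDM and 9.17% in P5_2iL_F over 20 cytosines.

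In the list of blood and immune genes, 9 of 36 measured gene ends were higher in P5_LCDM and 3 lower, with a median difference of 5.92 points, against 1.09%, 2.57% and 0 over all gene ends. The median level of the list was 36.1% in P5_LCDM and 11.5% in P5_2iL_F. Of its 22 members below 20% in P5_2iL_F, 8 were higher in P5_LCDM. The list was written with some of these values known: without the 13 members named in earlier results of these data, 2 of 23 were higher and 3 lower, with a median of 1.41 points. The lower members were Epor, the erythropoietin receptor, with 23.5% in P5_LCDM and 63.5% in P5_2iL_F, Zap70, the kinase of the T cell receptor, with 59.7% in P5_LCDM and 88.3% in P5_2iL_F, and Cd3e, a chain of that receptor, with 50.7% in P5_LCDM and 79.1% in P5_2iL_F. Once the overall difference was subtracted, 9 of the 36 were higher and 1 lower. Zap70 and Cd3e passed on 1 strand each. The same holds for the higher members Cbfa2t3, Havcr2, Tspoap1 and Tnfsf14, and Arhgap30, with 7 cytosines, had no strand values. The higher members Cebpe, Lmo2, Itgb2 and Tifab passed on both strands.

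Lag3, an inhibitory receptor of T cells that is outside the list, also went the other way, with 18.6% in P5_LCDM and 79.1% in P5_2iL_F over 10 cytosines.

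The endothelial genes that were called were all lower. Of 20 measured members 4 were lower in P5_LCDM and none higher, by the size rule, beside 2.57% lower over all gene ends, and the median difference was -0.91 points. Without the 5 members named in earlier results of these data, 2 of 15 were lower, with a median of -0.12 points, and once the overall difference was subtracted 3 of the 20 were lower. Nos3, the endothelial nitric oxide synthase, had 30.2% in P5_LCDM and 81.9% in P5_2iL_F, with 30 of 31 cytosines lower in P5_LCDM. Plvap, which forms the diaphragms of fenestrated endothelium, had 26.2% in P5_LCDM and 69.5% in P5_2iL_F over 14 cytosines. Clec14a, an endothelial surface lectin, had 43.8% in P5_LCDM and 81.6% in P5_2iL_F over 22 cytosines, and Pecam1, the junction protein CD31, had 25.1% in P5_LCDM and 53.6% in P5_2iL_F over 18. Each of the 4 passed on both strands, but Pecam1 was at -22.6 points with equal weight per CpG and at -24.1 points over cytosines listed in all 5 files, under the threshold. Of these, Plvap and Pecam1 were named in earlier results of these data. Members at low levels in both libraries hardly differed, such as Kdr, the main VEGF receptor, at 0.76% in P5_LCDM and 0.88% in P5_2iL_F.

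**Figure D4:**
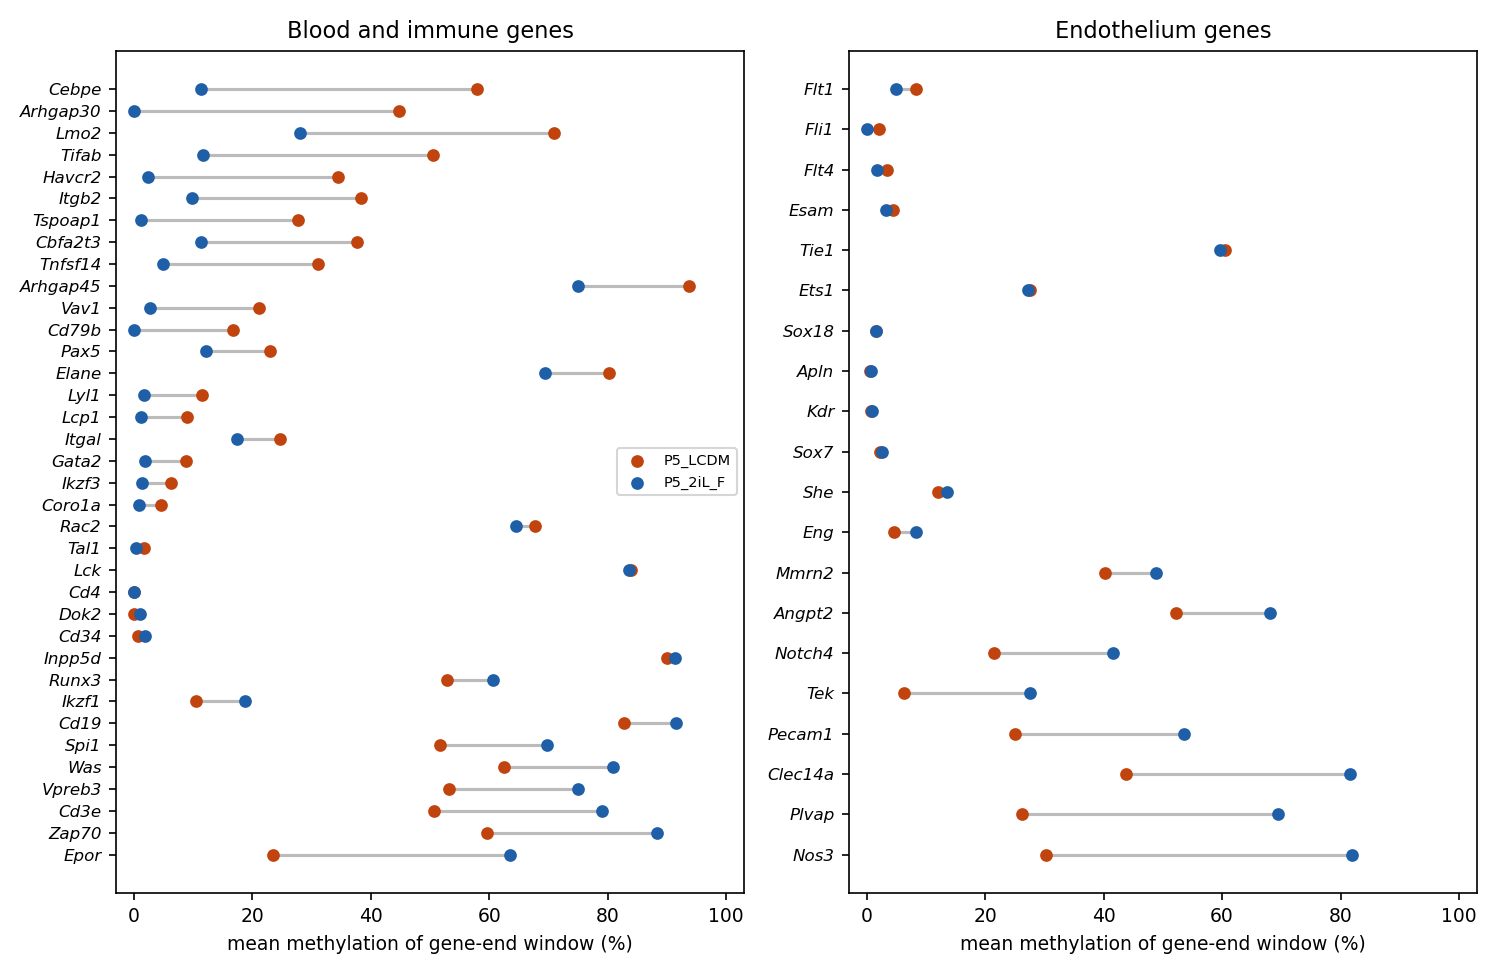
Mean methylation in percent of the gene-end windows of all 36 measured blood and immune genes (left) and all 20 measured endothelial genes (right) in P5_LCDM and P5_2iL_F, ordered by the difference. The blood panel holds 9 genes at least 25 points higher in P5_LCDM and 3 at least 25 points lower, and the endothelial panel holds 4 lower and no higher ones.

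Cavin3, a coat protein of caveolae, had 23.9% in P5_LCDM and 89.7% in P5_2iL_F, and the libraries did not overlap at any of its 15 cytosines, with 20.8% to 29.2% in P5_LCDM and 80% to 100% in P5_2iL_F. Sparcl1, a matricellular protein, had 21.9% in P5_LCDM and 82.1% in P5_2iL_F over 15 cytosines, and Btnl9, a butyrophilin-like protein, had 29.1% in P5_LCDM and 85.9% in P5_2iL_F over 15. Spaar, a small protein that limits mTORC1 signalling, had 7.48% in P5_LCDM and 61.3% in P5_2iL_F over 11. Among mesenchymal genes 1 of 35 was higher and 4 lower, beside 1.09% and 2.57% over all gene ends, while 24 differences were above 0 and 10 below, with a median of 1.2 points. Col3a1, a fibrillar collagen of soft tissue, had 60.9% in P5_LCDM and 98.2% in P5_2iL_F over 8 cytosines, and Tagln, a smooth muscle actin-binding protein, 21.7% in P5_LCDM and 52.3% in P5_2iL_F over 25. Tagln differed by -50 points on the plus strand and -8.2 on the minus strand, and Col3a1 by -20.2 and -50. The higher one was Col9a3, a cartilage collagen, with 55% in P5_LCDM and 28.1% in P5_2iL_F over 86 cytosines, 36.1 points higher on the plus strand and 17.3 on the minus strand.

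Epithelial genes contributed further lower windows. Krt7, a keratin of simple and glandular epithelium, had 42.3% in P5_LCDM and 86.3% in P5_2iL_F at a CpG-dense start, with 48 of 52 cytosines lower in P5_LCDM. Krt8, its relative in simple epithelia, had 40.9% in P5_LCDM and 70.5% in P5_2iL_F and passed on the minus strand alone. These were the only calls among 37 endoderm, gut and epithelial genes, beside 2.57% lower over all gene ends. In the whole family of keratins and keratin-associated proteins 7 of 47 were lower and none higher, by the size rule, beside 2.57% lower over all gene ends, and 40 differences were below 0, with a median of -13 points. Of the 22 members above 80% in P5_2iL_F 5 were lower, beside the 14.7% of all such gene ends, and 3 of the 47 were lower once the overall difference was subtracted. Gjb5, a connexin of skin and placenta, had 27% in P5_LCDM and 95% in P5_2iL_F over 10 cytosines. Cldn15, a tight junction claudin of the intestine, had 27.1% in P5_LCDM and 81.6% in P5_2iL_F over 16 cytosines. The claudin family had 2 of 19 lower, beside 2.57% over all gene ends. Capn12, a calpain of the hair follicle, had 25.5% in P5_LCDM and 83.8% in P5_2iL_F, with 25 of 26 cytosines lower.

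Ltk, a receptor tyrosine kinase, showed the largest lower difference under the rule, with 21.1% in P5_LCDM and 94.7% in P5_2iL_F over 19 cytosines at its 3′ end. In a window reaching 500 bp outside instead of 1000 bp the difference of Ltk was -12.6 points, and it was no longer called. Dio1, a deiodinase of thyroid hormone in liver and kidney, had 40.5% in P5_LCDM and 89.4% in P5_2iL_F. Vmo1 had 18.1% in P5_LCDM and 77.5% in P5_2iL_F, with all 23 cytosines lower. The windows of Eva1b and Sh3d21 overlap at their 3′ ends and are in part the same measurement, with 31.1% and 28.8% in P5_LCDM and 86.8% and 86.1% in P5_2iL_F.

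Mcts2, a retrogene that is imprinted and expressed from the paternal allele, had the highest CpG density of the 30 windows with the largest differences, a median of 29 neighbours. It had 33.2% in P5_LCDM and 89.6% in P5_2iL_F over 78 cytosines (chr2:152686148-152687648), 77 of them lower in P5_LCDM, as in the promoter printed above. Its host gene H13 had 0.67% in P5_LCDM and 0.64% in P5_2iL_F at its own start. The level of Mcts2 was 97.4% in P5_2iL, 82.4% in P5_a2iL and 30.6% in muscle. Of 35 measured imprinted genes no other with 10 or more cytosines was called. Snurf had 50.8% in P5_LCDM and 59.8% in P5_2iL_F, and Peg3 39.7% in P5_LCDM and 34.8% in P5_2iL_F. Zrsr1 had 42.6% in P5_LCDM and 47.3% in P5_2iL_F, and Plagl1 34.8% in P5_LCDM and 44.1% in P5_2iL_F. Slc38a4, an amino acid transporter, was lower over 6 cytosines, with 66.7% in P5_LCDM and 100% in P5_2iL_F. In the list 2 of 35 were thus lower and none higher, beside 2.57% lower over all gene ends. The median of the list was 0.32 points.

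**Figure D5:**
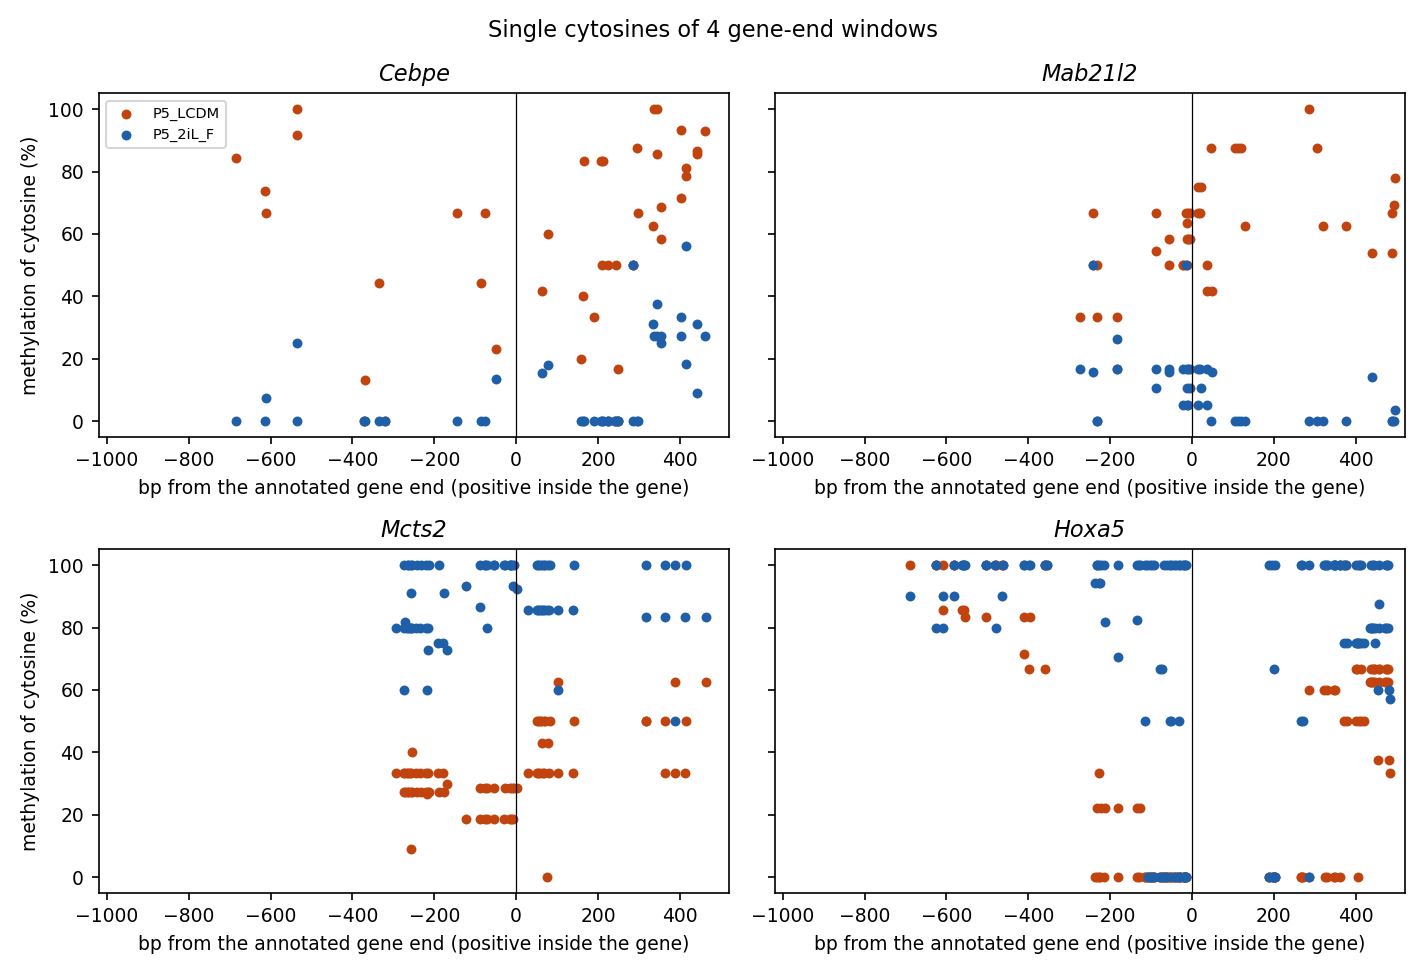
Methylation in percent of each shared cytosine against its distance in bp from the annotated gene end (positive inside the gene) for Cebpe, Mab21l2, Mcts2 and Hoxa5 in P5_LCDM and P5_2iL_F. At Cebpe and Mab21l2 the P5_LCDM points lie above those of P5_2iL_F, at Mcts2 below them, and at Hoxa5 the gap is widest within 250 bp of the start and narrower further out.

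Hox genes, which set position along the body axis, were called in both directions within the HoxA cluster. Hoxa5 had 35.8% in P5_LCDM and 76.9% in P5_2iL_F over 135 cytosines (chr6:52204087-52205587), with -31.5 points on the plus strand and -51.6 on the minus strand. The window of Hoxa6 overlaps it and had 45.9% in P5_LCDM and 80% in P5_2iL_F. Hoxa7 had 67.1% in P5_LCDM and 32.1% in P5_2iL_F, and Hoxa9 45% in P5_LCDM and 13.6% in P5_2iL_F, each past 25 points on 1 strand alone. The neighbouring Hoxa10 had 16.5% in P5_LCDM and 1.14% in P5_2iL_F, under the threshold. Hoxd10 and Hoxd11 were 24.1 and 24.4 points higher, also under the threshold. The other 33 of 37 measured Hox genes were not called. In the list 2 were thus higher and 2 lower, beside 1.09% and 2.57% over all gene ends.

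Developmental transcription factors outside the Hox clusters leaned upward by small amounts. Of 133 measured, 3 were higher in P5_LCDM and none lower by the size rule, beside 1.09% and 2.57% over all gene ends. Of the 133, 124 were below 20% in P5_2iL_F and could not be called lower, so the lack of lower calls says little. Among these 124, 1 was higher, beside 0.86% of all such gene ends. In the list 99 differences were above 0 against 34 below, with a median of 2.26 points. The median level was 7.43% in P5_LCDM and 4.3% in P5_2iL_F. Over all gene ends 7044 differences were above 0 and 7283 below. Nr2f2, the nuclear receptor COUP-TFII of vein and mesenchyme, had 58% in P5_LCDM and 3.08% in P5_2iL_F over 25 cytosines at its 3′ end, and it was at 0% to 2.88% in the other 3 libraries. All 25 lie between positions -996 and -808 bp, outside the gene, so a window reaching 500 bp outside gives no value for Nr2f2. Hmx2, a homeobox factor of the inner ear, had 73.1% in P5_LCDM and 31.4% in P5_2iL_F over 13 cytosines at its 3′ end, and Pax8, a factor of thyroid and kidney, 88.8% in P5_LCDM and 40.5% in P5_2iL_F over 7. Mab21l2, a gene of eye development that is outside the list, had 61.1% in P5_LCDM and 10.6% in P5_2iL_F, with 41 of 42 cytosines higher.

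Further higher windows belong to genes of varied function. Slc37a1, a sugar phosphate exchanger of the endoplasmic reticulum, had 70.6% in P5_LCDM and 0% in P5_2iL_F at all 21 cytosines, and 13.3% in P5_2iL, 33.3% in P5_a2iL and 0% in muscle. Its single cytosines ranged between 0% and 100% in P5_LCDM, and over cytosines listed in all 5 files its difference was 56.7 points. Dgki, a diacylglycerol kinase of neurons, had 73.6% in P5_LCDM and 11.1% in P5_2iL_F over 25 cytosines. Ldha, the A subunit of lactate dehydrogenase, had 87.1% in P5_LCDM and 29.7% in P5_2iL_F over 17, and Gtsf1l, a relative of a germ cell factor, 77.2% in P5_LCDM and 13.5% in P5_2iL_F over 16. Fam83a had 56.4% in P5_LCDM and 6.76% in P5_2iL_F. Gm42166 and Gm44180, predicted genes, had 90.4% and 65.6% in P5_LCDM against 21% and 11.2% in P5_2iL_F.

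Olfactory receptor and germline genes, which are methylated in most tissues, are described next. Olfactory receptor genes had 17 of 63 lower and none higher by the size rule, beside 2.57% lower over all gene ends. Their medians were 72.8% in P5_LCDM and 90.1% in P5_2iL_F. Of their 45 members above 80% in P5_2iL_F, 12 were lower, beside the 14.7% of all such gene ends. Olfr71 had 44.2% in P5_LCDM and 85.2% in P5_2iL_F over 31 cytosines, and Olfr15 33.8% in P5_LCDM and 80.2% in P5_2iL_F over 6. Germline genes kept off in body cells by promoter methylation had 8 of 37 lower and none higher, beside the same 2.57%. Their medians were 78.8% in P5_LCDM and 89.8% in P5_2iL_F. Of their 28 members above 80%, 7 were lower, and of the 30 members not named in earlier results 3 were lower. Stk31, a testis kinase, had 60.9% in P5_LCDM and 100% in P5_2iL_F over 23 cytosines. Its SD over cytosines was 49.9 points in P5_LCDM, and with no CpG listed on both strands in both libraries its strands cannot be compared. Tdrd6, a Tudor protein of germ granules, had 46.4% in P5_LCDM and 80.9% in P5_2iL_F over 10 cytosines. Dazl, an RNA-binding protein of germ cells, and Sycp1, of the synaptonemal complex, were not called. Dazl had 95.2% in P5_LCDM and 94% in P5_2iL_F, and Sycp1 had 95.5% in P5_LCDM and 94.1% in P5_2iL_F.

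Skeletal muscle genes had 4 of 33 lower and none higher by the size rule, beside 2.57% lower over all gene ends, with medians of 59.2% in P5_LCDM and 78.2% in P5_2iL_F and 26 differences below 0. Of their 15 members above 80% in P5_2iL_F 2 were lower, beside the 14.7% of all such gene ends. Mb, which encodes myoglobin, had 51.6% in P5_LCDM and 88.4% in P5_2iL_F over 38 cytosines. Tnni1, the slow troponin I, had 49.6% in P5_LCDM and 77.1% in P5_2iL_F over 18, and Trim63, a ubiquitin ligase of muscle, 45.8% in P5_LCDM and 79% in P5_2iL_F over 10. Lmod3, an actin nucleator of the sarcomere, had 59.5% in P5_LCDM and 86.9% in P5_2iL_F, but the plus strand differed by -2.24 points and the minus strand by -48.4. Myog, the muscle factor myogenin, was higher by 12.5 points, under the threshold. After the overall difference was subtracted, 2 of the 33 were lower by 25 points or more.

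In lists of mostly unmethylated or dense gene starts the share called ran on both sides of the 3.66% over all gene ends. It was 7.69% for pluripotency, 6.67% for trophoblast, 5.71% for neural and 5% for DNA methylation machinery genes. For housekeeping genes it was 3.33% and for the Wnt, Bmp, Fgf, Shh and Notch pathways 2.99%. Each of these shares rests on 1 or 2 calls. Synapse and ion channel genes had 0 calls among 44 and tumour suppressors 0 among 39 by the size rule. Both also had 0 once the overall difference was subtracted. Synapse and ion channel genes had 30 differences above 0 and 14 below, with a median of 1.01 points. Tumour suppressors had 21 above 0 and 18 below, with a median of 0.19 points. Neural genes had 1 of 35 higher and 1 lower. These were Dlx1, a homeobox factor of forebrain interneurons, with 39.3% in P5_LCDM and 14.1% in P5_2iL_F, and Hesx1, of the anterior forebrain, with 0.79% in P5_LCDM and 28.6% in P5_2iL_F. At Hesx1 the plus strand differed by 1.85 points and the minus strand by -50, and Dlx1 passed on the plus strand alone. Genes of the Wnt, Bmp, Fgf, Shh and Notch pathways had 2 of 67 lower, beside 2.57% over all gene ends, with 47 differences above 0 and 20 below and 0 lower once the overall difference was subtracted. These were Axin2, a Wnt target and inhibitor, with 34.8% in P5_LCDM and 60.7% in P5_2iL_F, and Chrd, a Bmp antagonist, with 43.9% in P5_LCDM and 73.2% in P5_2iL_F. Axin2 passed on the minus strand alone and was at -24.4 points over cytosines listed in all 5 files. Among pluripotency genes, 1 of 26 was higher and 1 lower. Tdgf1, the Nodal coreceptor Cripto, had 57.8% in P5_LCDM and 24.7% in P5_2iL_F over 67 cytosines, and Dppa3, which protects DNA from methylation changes in the early embryo, 58.1% in P5_LCDM and 85% in P5_2iL_F over 9. Dppa3 was also the only call, a lower one, among 20 genes of the DNA methylation machinery. Among trophoblast genes Krt7 was the only call of 15. Housekeeping genes had 1 higher of 30, Gapdh, with 40% in P5_LCDM and 0% in P5_2iL_F over 5 cytosines.

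The other libraries were read at the same gene ends and tiles. Over lower gene ends with values in all 5 libraries (344), the medians were 49.2% in P5_LCDM, 84.1% in P5_2iL_F, 85% in P5_2iL, 69.2% in P5_a2iL and 56.1% in muscle. Over higher gene ends (148) they were 53.2% in P5_LCDM, 11.9% in P5_2iL_F, 10% in P5_2iL, 28.9% in P5_a2iL and 34% in muscle. In lower tiles the pattern was alike, with 51.9% in P5_LCDM, 87.9% in P5_2iL_F, 87.9% in P5_2iL, 76.2% in P5_a2iL and 67.4% in muscle. Higher tiles had 65.1% in P5_LCDM, 23.5% in P5_2iL_F, 21.9% in P5_2iL, 48.3% in P5_a2iL and 57.1% in muscle. The P5_a2iL median was thus nearer P5_LCDM in higher tiles but nearer P5_2iL_F at higher gene ends. P5_2iL was nearer to P5_2iL_F than to P5_LCDM in 96.2% of lower, 88.2% of higher and 70.5% of uncalled tiles. The shares for P5_a2iL were 72.2% of lower, 45.7% of higher and 52.7% of uncalled tiles, and those for muscle 48.3%, 38.1% and 46.6%. Over the 3079380 autosomal cytosines listed in all 5 files, 26.8% were at 20% to 80% in P5_LCDM, 15.4% in P5_2iL_F, 13.4% in P5_2iL, 22.8% in P5_a2iL and 21.7% in muscle.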

How the data were processed

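Reduced representation bisulfite sequencing was used on 1 library per group. The values are the authors' deposited percent of methylation per CpG cytosine, where each strand of a CpG has its own line and reads are not counted. The submitters' processing notes name Trim Galore 0.6.4, Bismark and the build mm10. No coverage minimum or call setting is stated. Depth is unknown, so the planned Fisher test on reads was replaced by the size rule alone, and no interval was computed. PCR copies cannot be told apart, and the percent values are taken as deposited.

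The position column counts from 1: all 495270 listed cytosines inside RefSeq promoters of GRCm38.p6 lie on a CpG. Differences are P5_LCDM minus P5_2iL_F, with equal weight per cytosine. Density is the number of other cytosines listed in either file within 100 bp, as the median over a window. Gene positions came from a RefSeq table with 21887 protein-coding genes, and strand from a promoter table for 17492. Of these genes 14794 had 5 or more shared cytosines, 1140 had 1 to 4 and 5953 had none; 3031 measured windows overlap another. Strands were compared in windows with 3 or more CpGs read on both.

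Named gene ends have 10 or more shared cytosines and 25 points or more on each strand, the 15 largest in each direction; further named are at most 4 called members per list, 5 tiles in each direction with 20 or more cytosines, and promoters among these. Some are not reported here. Other genes named were chosen after their values were seen. The members and lists were chosen with earlier results of these data known. Calculations were made in Python 3.11.15 with pandas 2.3.3, NumPy 2.4.6 and, for plots, matplotlib 3.10.9. Simulated data served to check the code for tiles and windows. Alternatives changed the cytosine minimum, threshold, window, weighting, strand, chromosomes and centring.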

Additional observations from a re-analysis of the deposited data

How the results depend on the processing

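The lower calls outnumbered the higher ones under every alternative tried. Tiles called higher and lower numbered 7878 and 40415 with 3 shared cytosines, 2452 and 9840 with 10, 1755 and 7026 at 40 points, and 1864 and 8393 on each strand alone. Gene ends called higher and lower numbered 43 and 97 at 40 points, 78 and 153 on each strand alone, and 102 and 228 at the other end of the gene. With 10 shared cytosines 210 gene ends were lower, and at the start by strand 207 were. At 20 points 251 gene ends were higher, and after the overall difference was subtracted 244 were, beside 254 lower. The mean difference of -4.81 points was -4.6 over cytosines listed in all 5 files, -4.84 with equal weight per CpG, -7.59 with equal weight per tile and -4.72 on autosomes. The cause of these shifts was not tested, beyond the windows, points and cytosines that each alternative leaves. No named gene end reversed. Under 25 points fell 7 of 94 over cytosines listed in all 5 files, 2 of 96 with equal weight per CpG and 5 of 96 in windows reaching 500 bp outside. No paired analysis was possible because each group has 1 library. Single cytosines cannot be judged, since the depth of each is unknown.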

Other observations

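Some gene families outside the lists above held calls of interest, given here as values. On the X chromosome, the Xlr genes, a family of lymphocyte and germ cell nuclear proteins, split: Xlr4c and Xlr4b had 63.8% and 68.8% in P5_LCDM against 23.4% and 32.4% in P5_2iL_F, whereas Xlr3a had 33.3% in P5_LCDM and 100% in P5_2iL_F over 6 cytosines. Serpins had 3 of 16 lower, beside 2.57% over all gene ends, with a median of -0.75 points, among them Serpina1a, an antitrypsin gene of liver, with 42.4% in P5_LCDM and 87.9% in P5_2iL_F over 7 cytosines. Among 26 genes of liver, pancreas and metabolic hormones 1 was higher and 3 lower, beside 1.09% and 2.57% over all gene ends. Apoe, the lipoprotein carrier, had 16.9% in P5_LCDM and 44.4% in P5_2iL_F over 30 cytosines, and differed by -22.4 points over cytosines listed in all 5 files, under the threshold. Cyp27b1, which activates vitamin D, had 65.7% in P5_LCDM and 30.5% in P5_2iL_F over 16, but the difference was 0.08 points in a window reaching 500 bp outside. The chemokine Cxcl10 was lower, with 17.8% in P5_LCDM and 53.1% in P5_2iL_F (-23.8 points in that window, under the threshold), and the chemokine receptor Ccr10, whose window overlaps that of Cntnap1, was higher, with 45.9% in P5_LCDM and 12.2% in P5_2iL_F. The calcium-binding gene S100a6 had 25% in P5_LCDM and 56.8% in P5_2iL_F over 11 cytosines. Clustered protocadherins, cell surface proteins of neurons, had 2 of 41 higher, beside 1.09% over all gene ends. Pcdha2 had 59.4% in P5_LCDM and 24.7% in P5_2iL_F (24.9 points over cytosines listed in all 5 files, under the threshold). Pcdhgb4 had 59.7% in P5_LCDM and 30.1% in P5_2iL_F.

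The Y chromosome averaged 73.8% in P5_LCDM and 88.4% in P5_2iL_F over 11347 cytosines, a larger gap than on any autosome. Of its 778 tiles 147 were lower (18.9%) and 4 higher, beside 12.6% and 2.45% over all tiles. Y tiles averaged 88.7% in P5_2iL_F against 70.5% over all tiles, which leaves more room for lower calls. Intergenic tiles with fewer than 5 neighbours, at 80.9% in P5_2iL_F, were lower in 21.9% of cases. The histone genes H2bc7 and H2ac7 share a window with 39.5% in P5_LCDM and 1.03% in P5_2iL_F over 13 cytosines, at 0% to 1.1% in the other 3 libraries.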
